A study of Mus musculus with 12 samples.

Results

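The Gimap genes encode GTPases of immunity-associated proteins and were read across CD4+ T cells of 4 groups of mice. The members were taken by name, as the probe sets that the array's annotation assigns to Gimap1, Gimap3, Gimap4, Gimap5, Gimap6, Gimap7, Gimap8 or Gimap9 and to no other gene. This gave 11 probe sets for 8 of the 18193 genes on the arrays, with 2 probe sets each for Gimap4, Gimap6 and Gimap7. Expression was measured on 12 Affymetrix Mouse Genome arrays, 3 per group, all from female mice. The SKG arrays hold lymph node CD4+ T cells of SKG mice, a strain on the BALB/c background that carries a point mutation in Zap70, a kinase of the T cell receptor, at an age of 40 weeks. The BALB arrays hold cells of BALB/c mice of the same age, from lymph node in replicates 2 and 3. The cells of these SKG and BALB arrays lack FR4 by sorting, a folate receptor found on regulatory T cells, and were stimulated with PMA and ionomycin. BALB replicate 1 is the exception, since its label gives stimulated CD4+ cells from spleen and lymph node and names no FR4 sort. The transfer arrays hold spleen CD4+ T cells 7 days after transfer, with an age of 7 weeks and no stimulation named in the labels. In the IFN-γ-deficient transfer, IFNg KO BALB/c cells were given to RAG2 KO BALB/c hosts. In the IL-6-deficient transfer, IL-6 KO BALB/c cells were given to IL-6 KO RAG2 KO BALB/c hosts, so donor and host genotypes differ together. RAG2-deficient hosts make no T or B cells of their own, and no transfer of unmodified cells was included. The labels do not say whether replicates came from separate animals.

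GIMAP proteins are small GTPases that sit mostly on intracellular membranes of lymphocytes, and their genes form a single cluster in mammals. Several of them set how long T cells live. Mice or rats that lack Gimap5 lose peripheral T cells, Gimap1 is required for mature lymphocytes to persist, and Gimap3 is a close relative of Gimap5 that influences how mitochondria are handled in the cell. Gimap4 has been tied to the pace of T cell death, Gimap6 to autophagy through the ATG8 protein GABARAPL2, and Gimap7 can stimulate GTP hydrolysis by other family members. Gimap8 is the member with several GTPase domains in one chain, and the role of Gimap9 is less well known.

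Median array intensity ran from 15.7 to 27.6. Values are log2(intensity + 16) after quantile normalization, which makes the distributions of the arrays alike, and a difference on this scale understates the change of dim genes. In the IFN-γ-deficient transfer Ifng was at 9.40 ± 0.47 (SD, n = 3) against 13.56 ± 0.02. Il6 was not lower in the IL-6-deficient transfer, at 6.51 ± 1.32 against 5.38 ± 1.26, so it does not check that label, and whether either probe set lies in a deleted part is not given in the sources used here. Of 10 CD4 T cell markers 9 were on the array, all above the floor used for testing (the 40th percentile of all probe sets), among them Cd3e and Cd4. All 8 Gimap genes passed this floor in each comparison.

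SKG cells held more Gimap7, Gimap3, Gimap8 and Gimap4 transcript and less Gimap9 than BALB cells, while Gimap1, Gimap5 and Gimap6 did not pass the test. The differences ran from a 3.29-fold rise of Gimap7 to a 1.54-fold fall of Gimap9. By limma with Benjamini-Hochberg adjustment over all genes, 4 of 8 Gimap genes rose and 1 fell at an adjusted p under 0.05. Over all 12073 genes 15.8% rose, 11.8% fell and 27.5% did either. The median log2 difference was 0.42 over the Gimap genes and 0.06 over all genes. In bulk samples such as these, fewer cells that hold a transcript and less transcript per cell cannot be told apart.

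Gimap7, which acts on the GTPase activity of other family members, rose most. Its brighter probe set, 1425084_at, was at 10.02, 10.19 and 9.33 in SKG replicates 1 to 3 and at 8.15, 8.28 and 7.95 in BALB. Every SKG array lay above every BALB array, and replicate 3 was the lowest of each group. The log2 difference was 1.72 ± 0.23 (SE, 95% interval 1.2 to 2.24, limma adjusted p = 0.0012). The dimmer probe set, 1444283_at, was at 7.41, 7.57 and 7.29 against 6.79, 6.37 and 6.49, again without overlap. Its difference of 0.87 ± 0.19 (adjusted p = 0.011 with all probe sets tested separately) was smaller than that of the brighter one and had the same sign.

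Gimap3, the mitochondria-linked relative of Gimap5, was at 10.49, 10.99 and 10.52 in SKG and at 9.74, 9.87 and 9.20 in BALB. The groups did not overlap, and the lowest BALB value was again replicate 3. The difference was 1.06 ± 0.21 (SE, 95% interval 0.58 to 1.54, limma adjusted p = 0.0066), a 2.09-fold rise. Gimap3 and Gimap5 are paralogs that lie side by side, and how far a probe set of either also binds transcripts of the other was not tested.

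Gimap8, the multi-domain member, gave tight groups. It was at 11.96, 12.01 and 11.81 in SKG and at 11.13, 11.10 and 10.96 in BALB. The SD was 0.10 in SKG and 0.09 in BALB, against a difference of 0.86 ± 0.11 (SE, 95% interval 0.62 to 1.11, limma adjusted p = 0.00089). This rise was 1.82-fold.

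Gimap4, the member linked to T cell death, rose 1.5-fold. The brighter probe set, 1424375_s_at, whose suffix marks a design that can match more than 1 transcript, was at 13.19, 13.30 and 13.12 in SKG and at 12.72, 12.84 and 12.30 in BALB. The groups did not overlap, and BALB replicate 3 was the lowest array. The difference was 0.58 ± 0.13 (SE, limma adjusted p = 0.012), and that of the other probe set, 1424374_at, was 0.70 ± 0.14 (adjusted p = 0.0076 with all probe sets tested separately). The Gimap4 call was lost without SKG replicate 2 (adjusted p = 0.054), without normalization between arrays (0.23) and without the intensity trend in the variance model (0.052).

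Gimap9 was the only member that fell. It was at 10.15, 10.22 and 9.96 in SKG and at 10.85, 10.97 and 10.39 in BALB, so the BALB arrays lay above the SKG arrays without overlap, with replicate 3 lowest in each group. The difference was -0.63 ± 0.17 (SE, 95% interval -1.01 to -0.24, limma adjusted p = 0.025). This call rested on 4 of the 6 arrays: it was lost without SKG replicate 1 (adjusted p = 0.069), SKG replicate 2 (0.054), BALB replicate 1 (0.098) and BALB replicate 2 (0.10), with differences of -0.65, -0.69, -0.57 and -0.51.

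Without BALB replicate 1, the array with no FR4 sort in its label, Gimap7, Gimap3, Gimap8 and Gimap4 differed by 1.72, 1.13, 0.90 and 0.64 (limma adjusted p between 0.0057 and 0.029), and all 4 still passed. With the replicate number as a block the same 4 genes rose and Gimap9 fell, where 34.6% of all genes were called.

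Gimap1, needed by mature lymphocytes, was at 10.00, 10.04 and 9.92 in SKG and at 9.83, 9.88 and 9.49 in BALB. Its groups did not overlap, but the difference of 0.26 ± 0.15 (SE, 95% interval -0.08 to 0.59) did not pass (limma adjusted p = 0.24). Gimap5, whose loss depletes T cells, was at 9.94, 9.84 and 9.32 against 9.88, 9.90 and 9.36. The groups overlapped fully and the difference was -0.01 (95% interval -0.50 to 0.47, limma adjusted p = 0.97). Gimap6, the autophagy-linked member, was at 10.91, 10.92 and 10.94 against 10.87, 10.69 and 10.93, with a difference of 0.09 (95% interval -0.17 to 0.35, limma adjusted p = 0.61). Its dimmer probe set, 1456762_at, differed by -0.23 (95% interval -0.73 to 0.27), so the 2 probe sets had opposite signs. In all, the groups did not overlap for 6 of 8 genes, against 43.3% of all genes.

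**Figure D1:**
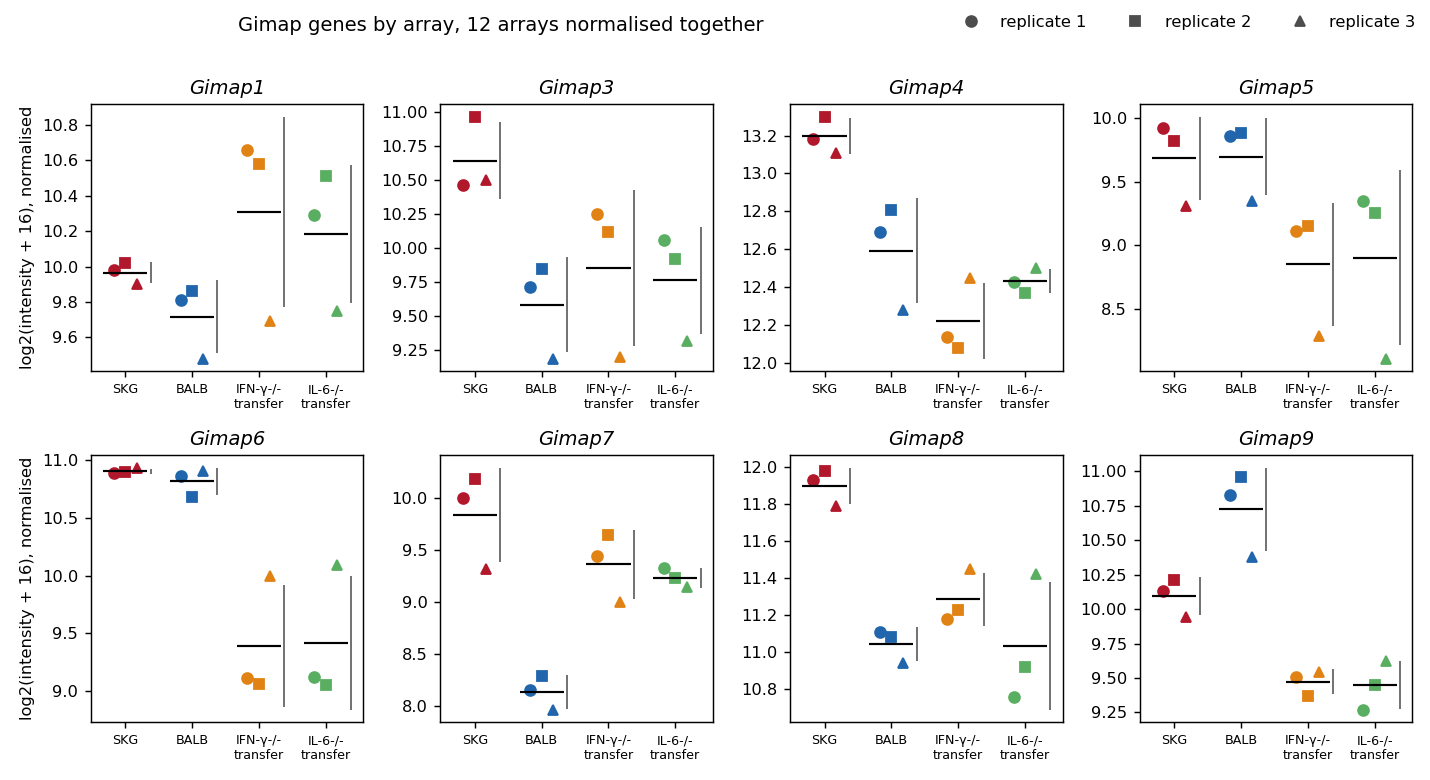
Each panel plots log2(intensity + 16) of a Gimap gene's brightest probe set on the 12 arrays, normalized together; markers are replicates, horizontal lines group means and grey bars 1 SD to each side (n = 3). Gimap7 is lowest in BALB, at a mean of 8.14, and Gimap6 is lower in the transfer groups, at means of 9.39 and 9.42, with replicate 3 the highest array of each.

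**Figure D2:**
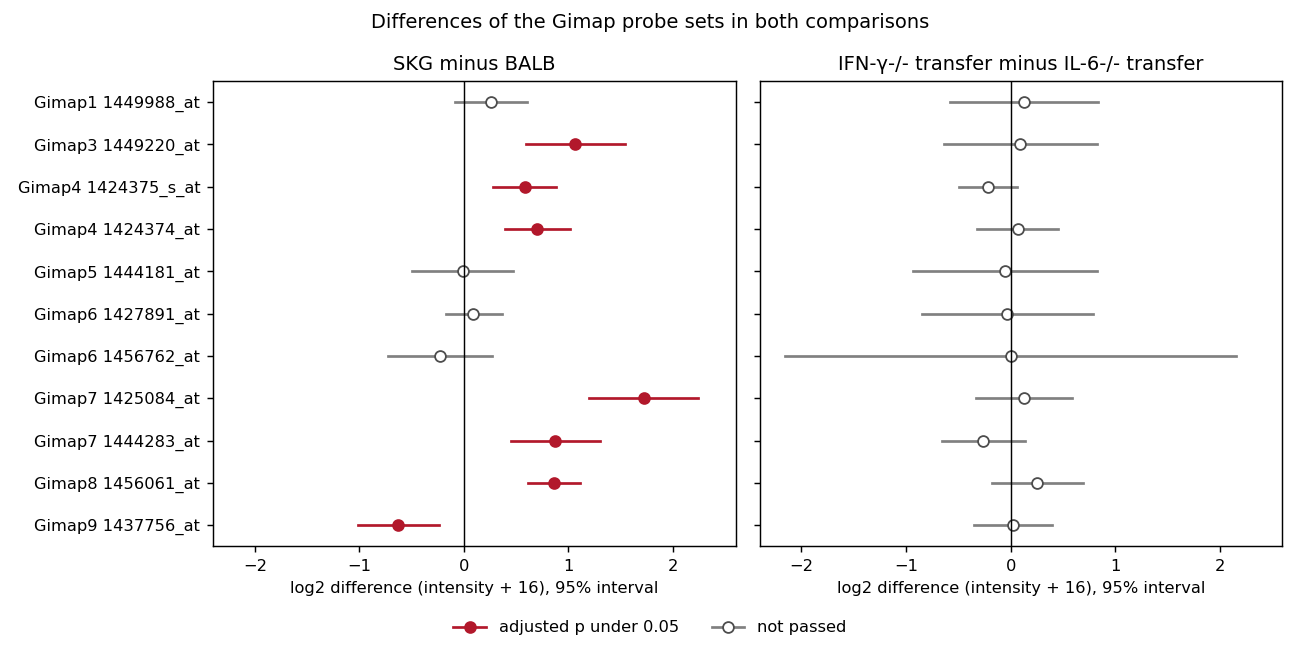
Points are log2 differences of the 11 Gimap probe sets with 95% intervals, SKG minus BALB on the left and IFN-γ-deficient minus IL-6-deficient transfer on the right, from limma with all probe sets tested separately. In SKG against BALB 6 probe sets rose and 1 fell (filled), where 2774 rose and 2672 fell of all 27022 tested. None passed in the transfer comparison, where 7 of all 27022 were higher and 5 lower. There the interval of Gimap6 1456762_at is the widest.

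The bases before the start sites of the 2 genes that rose most and of the gene that fell are shown because these neighbours of 1 cluster moved in opposite directions. They are the 250 bases before the first start site listed by RefSeq (GRCm38.p6), written 5′ to 3′ along the gene. Gimap7 is at chr6:48718371-48718620 on the plus strand, Gimap3 at chr6:48770852-48771101 on the minus strand and Gimap9 at chr6:48675885-48676134 on the plus strand. Capitals mark a match, on either strand, to GTAAACA (forkhead), CACCC (KLF), TGTGGT (RUNX), CCGGAAG (ETS) or TTCAAAG (TCF/LEF), and no marked matches overlap.
Gimap7: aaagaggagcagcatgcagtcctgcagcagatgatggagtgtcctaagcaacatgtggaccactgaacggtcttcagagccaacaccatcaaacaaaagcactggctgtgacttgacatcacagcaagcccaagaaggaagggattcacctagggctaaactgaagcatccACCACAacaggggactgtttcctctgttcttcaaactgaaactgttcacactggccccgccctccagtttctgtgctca
Gimap3: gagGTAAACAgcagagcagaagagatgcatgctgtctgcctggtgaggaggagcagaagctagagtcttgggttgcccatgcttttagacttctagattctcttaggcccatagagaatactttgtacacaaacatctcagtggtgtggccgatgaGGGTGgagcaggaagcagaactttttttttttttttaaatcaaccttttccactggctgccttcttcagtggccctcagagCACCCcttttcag
Gimap9: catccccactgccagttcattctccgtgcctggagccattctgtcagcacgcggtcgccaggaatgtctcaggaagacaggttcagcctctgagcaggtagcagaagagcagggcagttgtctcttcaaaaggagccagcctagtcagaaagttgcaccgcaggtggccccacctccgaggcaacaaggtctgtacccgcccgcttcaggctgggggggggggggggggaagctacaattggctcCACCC

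All 8 Gimap genes matched a promoter by symbol. The KLF letters were in the window of 5 of 8 genes, Gimap3, Gimap4, Gimap5, Gimap8 and Gimap9, against 52.0% of 32851 promoter windows of this length. The RUNX letters were in 3 of 8, Gimap1, Gimap4 and Gimap7, against 14%. The forkhead letters were in Gimap3 alone, against 3.17% of all windows, and the ETS and TCF/LEF letters were in none, against 6.91% and 4.46%. Genes that rose, fell or did not pass each included windows with KLF letters. A match is a description of the letters and not of binding.

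No Gimap gene passed between the IFN-γ-deficient and IL-6-deficient transfers by limma. By the brightest probe set every member's mean lay within 0.25 of the other group's on the log2 scale. None of 8 genes passed, where 14 of 12262 genes, 0.114%, did, and 532 genes had an unadjusted p under 0.05, none of them a Gimap gene. Adjusted p was 1.0 for all 8. With the replicate block 0 of 8 passed as well, where 1.79% of all genes did. The groups did not overlap for 0 of 8 genes by the brightest probe set, against 9.94% of all genes.

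The intervals show what these arrays could bound. Gimap4 was at 12.11, 12.05 and 12.43 in the IFN-γ-deficient transfer and at 12.42, 12.35 and 12.47 in the IL-6-deficient transfer. Replicates 1 and 2 were lower in the first group and replicate 3 lay among the second, with a difference of -0.22 (95% interval -0.49 to 0.06). Gimap8 was at 11.16, 11.22 and 11.44 against 10.75, 10.90 and 11.41, a difference of 0.25 (95% interval -0.19 to 0.69). Here replicate 3 was the highest of each group. With the replicate block the 95% interval was -0.38 to -0.05 for Gimap4 and 0.05 to 0.46 for Gimap8. Neither interval spanned both signs, but neither gene passed (limma adjusted p = 0.22 and 0.25). With replicates 1 and 2 only, an alternative chosen after seeing the data, Gimap4 differed by -0.29 ± 0.06 (SE, limma adjusted p = 0.022) and Gimap8 by 0.36 ± 0.07 (adjusted p = 0.027), and 4.11% of all genes were called.

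Gimap7 was at 9.43, 9.62 and 9.01 against 9.32, 9.22 and 9.13, with a difference of 0.13 (95% interval -0.33 to 0.58). This interval lies below the 1.2 to 2.24 found between SKG and BALB. Its dimmer probe set, 1444283_at, had the opposite sign, at 6.47, 6.38 and 6.37 against 6.76, 6.68 and 6.55. These groups did not overlap, but the difference of -0.26 (95% interval -0.66 to 0.14) did not pass (limma adjusted p = 1.0 with all probe sets tested separately). The probe set 1424374_at of Gimap4 also had the opposite sign to the brighter one, at 0.07 (95% interval -0.32 to 0.45). Gimap9 was at 9.50, 9.36 and 9.52 against 9.26, 9.44 and 9.60, and its difference of 0.02 (95% interval -0.34 to 0.39) was the smallest in size. Gimap1, Gimap3, Gimap5 and Gimap6 differed by 0.13, 0.09, -0.05 and -0.03. Their intervals were wide, from -0.94 to 0.85 at the extremes, and narrowed to between -0.31 and 0.37 with the replicate block.

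Replicate 3 set much of the spread of Gimap1, Gimap3, Gimap5 and Gimap6 in both transfer groups. The dimmer Gimap6 probe set, 1456762_at, had deposited intensities of 64.7, 56.3 and 377.7 in the IFN-γ-deficient transfer and of 57.9, 59.2 and 382.5 in the IL-6-deficient transfer. Replicate 3 stood far above replicates 1 and 2 in each group. With the 12 arrays normalized together, replicate 3 lay 2.59 and 2.69 above the mean of replicates 1 and 2 on the log2 scale, and only 0.0739% of 12176 genes deviated as much on average over the transfer groups. The brighter Gimap6 probe set lay 0.92 and 1.0 above, where 8.48% of genes deviated as much.

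Other members went the opposite way in the same arrays. In replicate 3 of the IFN-γ-deficient and the IL-6-deficient transfer Gimap5 lay 0.84 and 1.2 below the mean of the other replicates. For Gimap3 these values were 0.98 and 0.66 below, and for Gimap1 they were 0.93 and 0.64 below. On average over the transfer groups 7.05%, 12.7% and 14% of genes deviated as much as Gimap5, Gimap3 and Gimap1. For the probe sets of Gimap4, Gimap7, Gimap8 and Gimap9 this share was 40% to 80.9%, so their deviations were common ones. Over the 11 probe sets replicate 3 was the lowest array of both transfer groups in 5 and the highest of both in 5. How often this holds over all genes was not tested. The median size of this deviation over all genes was 0.32 in the transfer groups and 0.24 in SKG and BALB.

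The 3′/5′ intensity ratio of the Gapdh control probe sets, a measure of how complete the labelled RNA is, moved with these values. It was 7.99 and 9.33 in replicate 3 of the IFN-γ-deficient and IL-6-deficient transfer and between 2.42 and 2.84 in their replicates 1 and 2. In SKG and BALB it ran from 2.57 to 3.28 with no such array by this control, and the Gimap6 probe set 1456762_at deviated there by 0.33 and 0.60. Its part in the Gimap values was not tested. The actin 3′/5′ ratio was 3.81 and 5.13 in replicate 3 of the IFN-γ-deficient and IL-6-deficient transfer. In their replicates 1 and 2 it was 1.6 to 1.67. BALB replicate 3, at 3.98, lay above the 3.81 of that IFN-γ-deficient transfer array. This ratio also differed between the stimulated groups, at 1.93 to 2.63 in SKG and 2.95 to 3.98 in BALB. It stood beside the rises of Gimap7, Gimap3, Gimap8 and Gimap4, and its part in them was not tested.

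**Figure D3:**
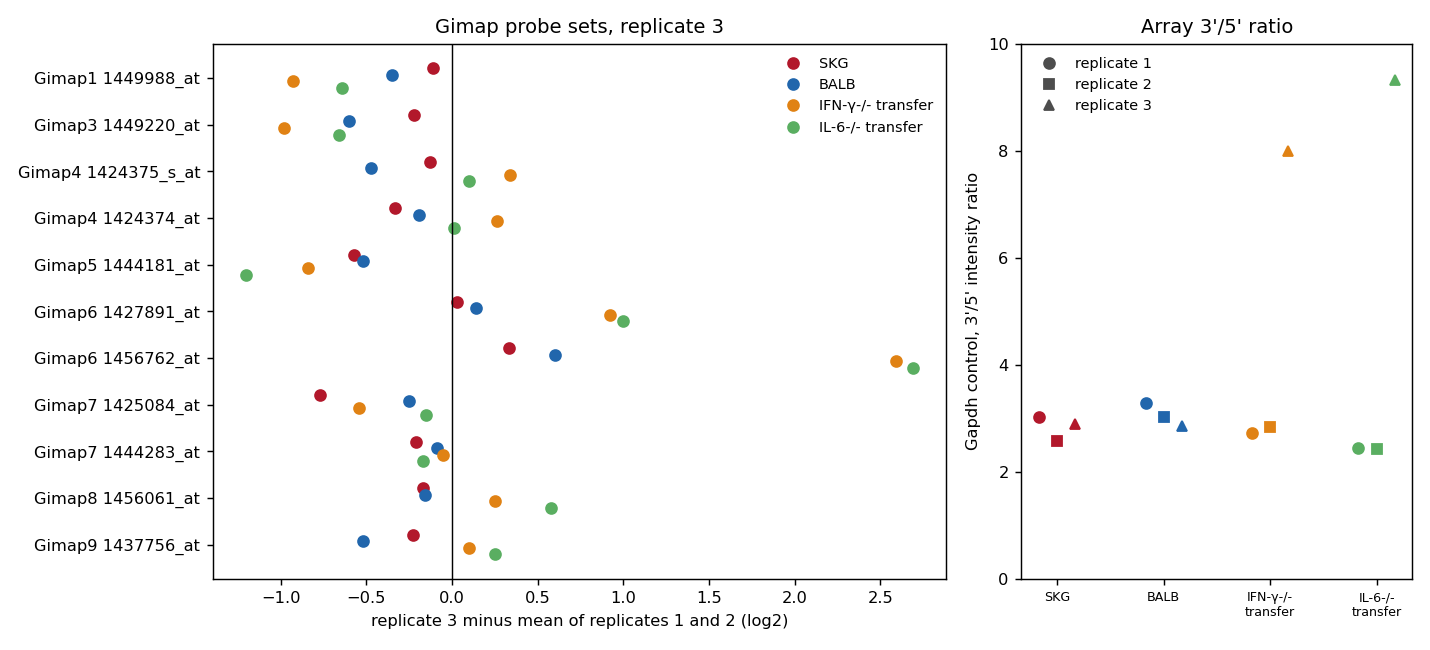
Left, the log2 level in replicate 3 minus the mean of replicates 1 and 2 for each Gimap probe set in each of the 4 groups (12 arrays normalized together). Right, the 3′/5′ intensity ratio of the Gapdh control on each array; the triangles at 7.99 and 9.33 are replicate 3 of the transfer groups, the same arrays that set Gimap6 1456762_at apart by 2.59 and 2.69.

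The change between SKG and BALB was larger than that between the transfers for Gimap7, by 1.56 ± 0.32 (SE, limma interaction adjusted p = 0.012), and for Gimap4, by 0.81 ± 0.19 (adjusted p = 0.022). Of all genes 8.2% passed this interaction test over the 12 arrays. With all probe sets tested separately, the dimmer Gimap4 probe set, 1424374_at, gave 0.63 ± 0.23 and did not pass (limma interaction adjusted p = 0.15). The brighter one, 1424375_s_at, passed (0.031), as did both Gimap7 probe sets (0.018 and 0.022). The other 6 members did not pass, with values of 0.97 for Gimap3 (adjusted p = 0.18), 0.60 for Gimap8 (0.12), -0.65 for Gimap9 (0.12) and between 0.04 and 0.12 for Gimap1, Gimap5 and Gimap6. With the replicate block Gimap3 passed too (adjusted p = 0.019), where 16.7% of all genes did. The Gimap4 interaction call was lost without SKG replicate 1 or 2, without replicate 1 or 2 of the IFN-γ-deficient transfer and without replicate 1 of the IL-6-deficient transfer (adjusted p from 0.053 to 0.068).

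Levels in the 4 groups are given as a description, by each gene's brightest probe set. Age, tissue, stimulation and host differ together between the stimulated and the transferred cells. With the 12 arrays normalized together, Gimap7 averaged 9.83 ± 0.45 (SD, n = 3) in SKG, 9.36 ± 0.33 and 9.23 ± 0.10 in the IFN-γ-deficient and IL-6-deficient transfer, and 8.14 ± 0.16 in BALB. Neighbouring groups in this order overlapped except that every BALB array was below all others. The dimmer Gimap7 probe set, 1444283_at, did not set BALB apart. Its BALB mean of 6.55 lay between the IL-6-deficient transfer at 6.67 and the IFN-γ-deficient transfer at 6.41, and BALB overlapped both. SKG, at 7.43, was clear of them. Gimap3 was highest in SKG, at 10.65 ± 0.28, without overlap with the next group, and the other 3 groups, at 9.86, 9.77 and 9.59, overlapped. Gimap8 averaged 11.90 ± 0.10 in SKG, clear of the IFN-γ-deficient transfer at 11.29 ± 0.14, which in turn was clear of BALB at 11.05 ± 0.09. BALB and the IL-6-deficient transfer, at 11.03 ± 0.35, overlapped.

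Gimap9 and Gimap6 were lowest after transfer. Gimap9 averaged 10.72 ± 0.31 in BALB, 10.09 ± 0.14 in SKG, and 9.47 ± 0.09 and 9.45 ± 0.17 in the IFN-γ-deficient and IL-6-deficient transfer. BALB, SKG and the transfer groups did not overlap, and the transfer groups overlapped with each other. Gimap6 averaged 10.91 ± 0.02 in SKG and 10.82 ± 0.12 in BALB, which overlapped, and 9.39 ± 0.53 and 9.42 ± 0.58 in the transfers, both below. The dimmer Gimap6 probe set, 1456762_at, had lower means in the transfers too, at 7.07 in each against 8.70 in SKG and 8.93 in BALB. Its groups overlapped, since replicate 3 of the transfers, at 8.80 and 8.86, lay within the 8.54 to 9.33 of SKG and BALB. Gimap4 averaged 13.20 ± 0.10 in SKG, 12.60 ± 0.28 in BALB and 12.43 ± 0.06 and 12.22 ± 0.20 in the IL-6-deficient and IFN-γ-deficient transfer, and only SKG was clear of the next group. Gimap5 averaged 9.70 and 9.68 in BALB and SKG and 8.90 and 8.85 in the transfers, with neighbouring groups overlapping. Gimap1 went the other way, at 10.31 ± 0.54 and 10.18 ± 0.39 in the transfers, 9.97 ± 0.06 in SKG and 9.71 ± 0.21 in BALB. In the transfers its replicate 3, at 9.69 and 9.75, was below every SKG array.

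Across all 12 arrays the Gimap genes did not follow each other as a block. Over the 28 pairs of genes Pearson r across the 12 arrays ran from -0.80 (Gimap1 and Gimap6) to 0.81 (Gimap6 and Gimap9), with a median of 0.44 and 20 pairs above 0. The arrays share their groups, and differences between groups enter these values. After each group's mean was removed, Gimap1, Gimap3 and Gimap5 moved together (r from 0.86 to 0.92) and against Gimap6 (r from -0.94 to -0.85). Without replicate 3 of the transfer groups the same pairs gave 0.66 to 0.71 and -0.70 to -0.52 over 10 arrays. Over all pairs the median then was 0.66, with 21 of 28 above 0, against 0.11 and 15 of 28 over the 12 arrays. Every pair below 0 over the 10 arrays held Gimap6, at -0.73 to -0.40. The pairs without Gimap6 ran from 0.42 to 0.97. How often pairs of other genes reach such values was not tested. Gimap1 and Gimap9, for example, gave 0 over 12 arrays and 0.97 over 10.

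**Figure D4:**
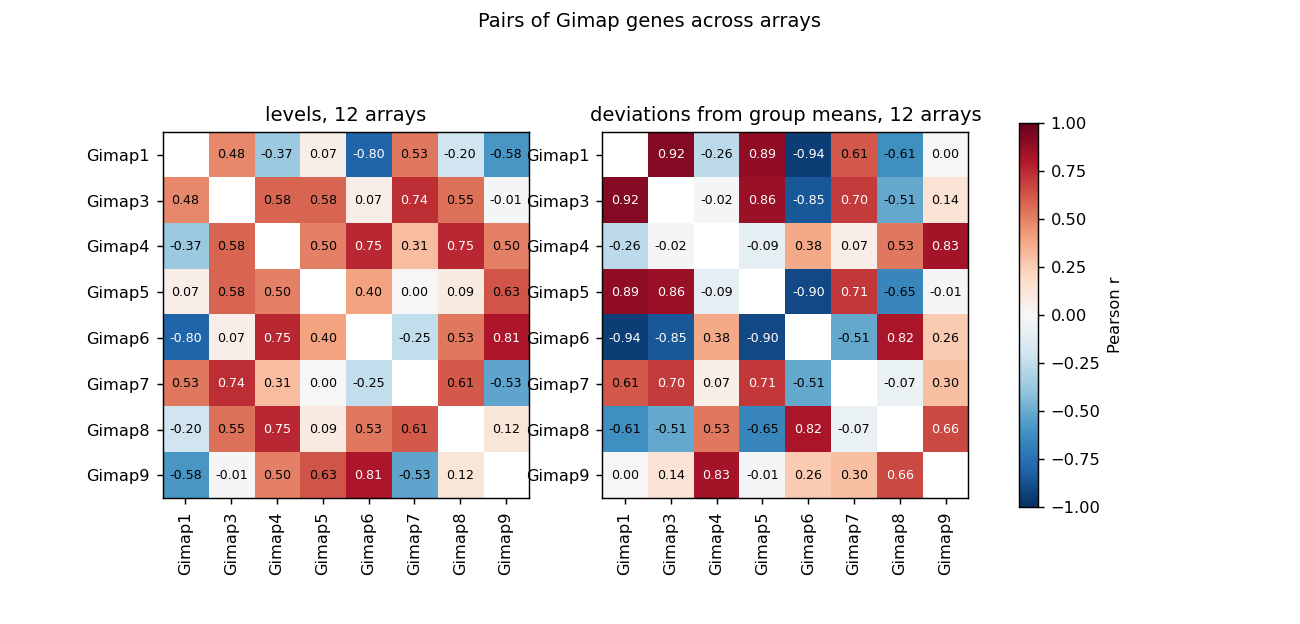
Each cell is the Pearson r of a pair of Gimap genes over the 12 arrays, for levels on the left and for deviations from group means on the right. On the right Gimap1, Gimap3 and Gimap5 form a block of r from 0.86 to 0.92 that opposes Gimap6. Without replicate 3 of the transfer groups, and with that of SKG and BALB kept, these pairs gave 0.66 to 0.71 and -0.70 to -0.52.

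The genes most like each member over the 12 arrays were not other Gimap genes in any of the 24 top places (3 per member). The 8 members are a small part of the 12176 genes compared, so this count says little about likeness among them. Etv6, a transcriptional repressor, was most like Gimap7 (Pearson r 0.986, Spearman rho 0.94). Il21, a T cell cytokine, was most like Gimap8 (0.947 and 0.95). Ncf1, a subunit of the phagocyte oxidase complex, came second for Gimap9 (0.982 and 0.98) after AW209491 (0.984 and 0.94). Zfp81 and Klf9 were most like Gimap6 (0.988 and 0.981), Crtap most like Gimap1 (0.970), Phf10 most like Gimap3 (0.947), Fam71b most like Gimap4 (0.972) and Cdk11b most like Gimap5 (0.972). The correlations are descriptions over arrays that fall into 4 groups.

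The Gimap genes lie together on chromosome 6 in the order Gimap8, Gimap9, Gimap4, Gimap6, Gimap7, Gimap1, Gimap5 and Gimap3 (RefSeq, GRCm38.p6). Rises and the fall were interspersed along this order, with Gimap9 between Gimap8 and Gimap4, and Gimap5 between Gimap1 and Gimap3. Of the 20 nearest named genes, 10 on each side, 11 were on the array and 9 were tested between SKG and BALB, of which 5 rose and 0 fell. The share of all genes that rose is 15.8%.

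The largest of these rises were those of Tmem176a and Tmem176b, a pair of overlapping genes for membrane proteins on the Gimap3 side of the cluster. Tmem176a was at 7.94, 8.48 and 8.05 in SKG and at 5.03, 4.61 and 4.49 in BALB, a difference of 3.45 ± 0.22 (SE, limma adjusted p = 5.1e-05). The 3 probe sets of Tmem176a ran from 1.84 to 3.45. Tmem176b was at 9.07, 9.84 and 9.11 against 6.22, 5.52 and 6.05, a difference of 3.41 ± 0.26 (adjusted p = 0.00012). Both exceeded every Gimap difference. Repin1 (0.83 ± 0.17), Atp6v0e2 (0.84 ± 0.24) and Zfp862-ps (0.90 ± 0.23), on the Gimap8 side, rose by about as much as Gimap8 (limma adjusted p from 0.0078 to 0.028).

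Between the transfers 1 of 8 tested neighbours passed, where 0.114% of all genes did. It was Tmem176a, at 7.12, 6.97 and 6.72 against 5.25, 4.49 and 4.84, higher in the IFN-γ-deficient transfer by 2.07 (limma adjusted p = 0.042). Its 3 probe sets ran from 1.26 to 2.07. Tmem176b was higher by 1.87 but did not pass (adjusted p = 0.22, and 0.010 with the replicate block). Whether the Gimap values differ from those of their neighbours was not tested.

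**Figure D5:**
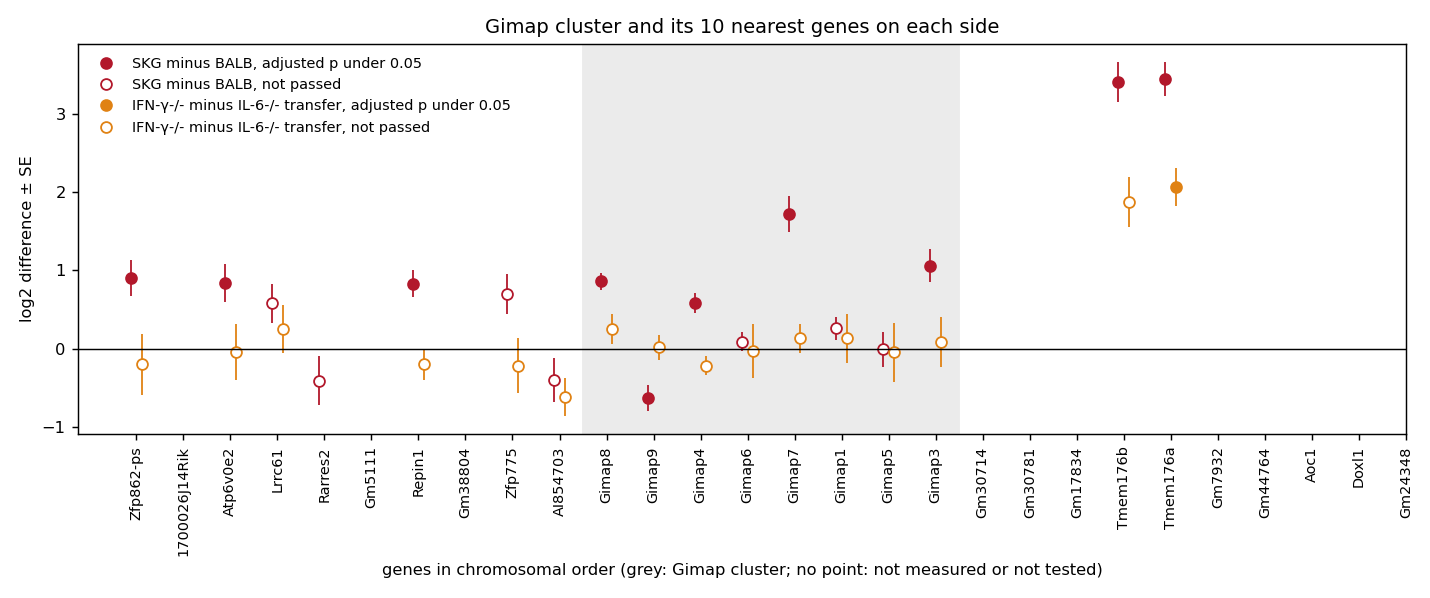
Log2 differences ± SE of the Gimap genes (grey band) and the 10 nearest named genes on each side, in chromosomal order; filled points passed an adjusted p under 0.05 and genes without a point were not on the array or not tested. Tmem176b and Tmem176a, at 3.41 and 3.45 between SKG and BALB, stand above all Gimap genes, which run from -0.63 to 1.72.

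Genes of survival and quiescence pathways did not show a single direction beside the Gimap genes in SKG. Of 13 tested Bcl2 family members, which promote or restrain mitochondrial cell death, 2 rose and 3 fell, with a median of -0.15 against 0.06 over all genes. This count and those of the lists that follow stand beside 15.8% of all genes that rose and 11.8% that fell. Bcl2, the survival factor, differed by 0.31 (limma adjusted p = 0.23), while its survival relatives Mcl1 and Bcl2l1 fell, with differences of -0.38 and -0.66. The death-promoting Bcl2l11 fell as well, with -0.30, and Bik and Bcl2l2 rose by 1.05 and 0.99 (adjusted p from 0.011 to 0.035). The 5 probe sets of Bcl2l11 ran from -1.91 to -0.30 and the 2 of Bik from 0.38 to 1.05. Of 7 tested genes of the interleukin-7 and STAT5 axis 2 rose and 2 fell: the receptor chain Il7r rose by 1.57 and the kinase Jak3 by 0.90, and Stat5a fell by 0.71 and the inhibitor Socs1 fell by 0.98 (adjusted p from 0.00032 to 0.037). The median was -0.20.

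Of 12 autophagy genes 4 rose and 2 fell, beside 15.8% and 11.8% of all genes, with a median of 0.18. Gabarapl2, the partner of Gimap6, differed by 0.22 (limma adjusted p = 0.41). Gabarap rose by 0.52, Atg5 by 0.81 and Atg7 by 0.77, and Map1lc3a and Sqstm1 fell, with differences of -2.01 and -0.66 (limma adjusted p from 0.0040 to 0.028). Of 14 tested naive and quiescence genes 7 fell and 2 rose, with a median of -0.77. Klf2 and Ccr7, which govern and mediate recirculation through lymph nodes, fell, with differences of -3.22 and -3.19. Lef1 fell as well, with -1.29, and Foxo1, a regulator of naive cell survival, with -1.0. Beside them Il7r rose, and Satb1 by 0.45 (limma adjusted p from 0.00032 to 0.013 for the naive and quiescence genes named). Of 12 early activation genes 5 rose and 2 fell, with Icos up 1.58 and Nr4a1 down, at -1.17 (adjusted p = 8.8e-05 and 0.00012). The actin 3′/5′ ratios named above also differed between these groups.

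The interferon-induced GTPases, a separate family that acts against intracellular pathogens, fell in part. Of 11 tested 0 rose and 5 fell in SKG, where 11.8% of all genes fell, with a median of -0.47, and 6 did not pass, among them Mx1 at 0.59, Mx2 at 0.49, Iigp1 at 0.41 and Gbp3 at 0.18 (limma adjusted p from 0.40 to 0.51). Irgm2, Irgm1 and Igtp fell, with differences of -1.72, -1.26 and -0.73 (limma adjusted p from 0.00037 to 0.0092). In the transfer comparison 0 of 9 passed and 3 were lower in the IFN-γ-deficient transfer with the replicate block, with a median of -0.73 without it. Among the other lists 0 members passed between the transfers by limma. With the block 1 early activation gene was lower, and none of the Bcl2 family, interleukin-7, autophagy or naive lists passed.

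Markers of other cells moved with the SKG comparison in part. The summed intensity of the 9 B cell markers on the array was 2960 to 6890 in SKG and 723 to 2570 in BALB, while 1 of 7 tested, Ighm, rose, by 1.93 (limma adjusted p = 0.012). The 8 probe sets of Ighm ran from -0.22 to 1.93. Ms4a1 and Cd79a, which define B cells, differed by 0.31 and 0.36 (limma adjusted p = 0.67 and 0.31), and Cd79b and Pax5 were under the floor. The other tested markers, Blk, Fcer2a, Cd22 and Cr2, differed by 0.96, 0.67, 0.27 and -0.03 (limma adjusted p from 0.052 to 0.97). Of the tested B cell markers all but Cr2 were thus higher in SKG, though only Ighm passed. B cells also express Gimap genes, and the part of these transcripts in the Gimap values was not tested. The CD8 markers summed to 29.1 to 126 in SKG and 233 to 249 in BALB, where Cd8b1 fell by 2.48 (adjusted p = 0.0035). The other CD8 gene, Cd8a, was at 0.81 and did not pass (adjusted p = 0.072), and its 4 probe sets ran from -0.11 to 0.81. The summed CD4 T cell markers overlapped, at 18100 to 19700 in SKG and 18000 to 20200 in BALB. Of these 9 markers 1 rose, Thy1 by 1.44, and 2 fell, Cd5 with -0.97 and Zap70 with -0.60 (adjusted p from 0.00042 to 0.014). Of plasma cell markers 1 of 3 tested rose, Derl3 by 0.80 (adjusted p = 0.017), while Sdc1 was at -0.64 and did not pass (adjusted p = 0.085). The summed level of the plasma cell markers was 555 to 948 against 239 to 698. Of 6 macrophage, 3 dendritic, 3 neutrophil, 1 erythroid, 2 endothelial or stromal and 1 NK marker tested, 0 passed.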

How the data were processed

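RNeasy columns gave the RNA, which was biotin-labelled by in vitro transcription, per the labels' protocols. The authors deposited linear intensities, 1 value on each array for every one of 45101 probe sets. How those intensities were summarised and scaled is unstated in the labels. The members and lists were chosen with earlier results of these data known.

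The 64 control probe sets were left out. Arrays of a comparison were quantile normalized as log2(intensity + 16), because medians differed by up to 1.76 times. The annotation named 1 gene for 34945 probe sets, several for 932 and none for 9160, and symbols were updated by gene ID for 34741. The brightest probe set stood for a gene, and genes at or above the 40th percentile of all probe sets were tested. Linear models were fitted per comparison of 6 arrays (limma 3.58.1, R 4.3.3, two-sided moderated test with an intensity trend), with Benjamini-Hochberg adjustment. The interaction used all 12. The fits were tested on simulated data. The number of arrays limits precision.

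Named genes are all members with every probe set, the 3 genes most alike to each, the 10 nearest named genes on each side, up to 4 passing genes per list, and Ifng, Il6 and Zap70. Other genes named beside a list (Bcl2, Bcl2l11, Gabarapl2, Gabarap, Foxo1, Satb1, Ms4a1, Cd79a, Blk, Fcer2a, Cd22, Cr2, Cd8a, Sdc1, Mx1, Mx2, Iigp1, Gbp3) were chosen after their values were seen. Zap70 differed by -0.60 in SKG (limma adjusted p = 0.014), and its 3 probe sets ran from -0.80 to -0.03.

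Replicate numbers come from the sample titles. Correlations of same-numbered deviations were 0.13, 0.20 and 0.33 (SKG with BALB) and 0.46, 0.45 and 0.70 (transfers), all over 0.1, so they were treated as pairs in a fit with the replicate block. Replicates 1 and 2 correlated crosswise as much (0.17 and 0.17, 0.44 and 0.41). The p-values therefore reflect spread among arrays only, possibly technical, since separate animals are not stated. Alternatives were other added constants, filters, normalizations, probe set rules and variance models, all arrays in one fit, the block and leaving out arrays.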

Additional observations from a re-analysis of the deposited data

Results flagged for a closer look

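The change between SKG and BALB differed from that between the transfers in the interaction test for 2 of 8 Gimap genes and 3 of 9 tested neighbours, where 8.2% of 12176 genes passed. The differences were 1.56 ± 0.32 (SE) for Gimap7 (limma adjusted p = 0.012), 0.81 ± 0.19 for Gimap4 (0.022), 1.41 ± 0.34 for Tmem176a (0.025), 1.02 ± 0.26 for Repin1 (0.030) and 1.56 ± 0.44 for Tmem176b (0.047). All were more positive between SKG and BALB, and the Gimap4 call was lost in 5 of 12 fits without a single array. The dimmer Gimap4 probe set, 1424374_at, did not pass (0.63 ± 0.23, limma adjusted p = 0.15 with all probe sets tested separately). Groups of 3 arrays are too small for a test of single outlying arrays.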

How the results depend on the processing

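Between SKG and BALB, Gimap3, Gimap7 and Gimap8 kept their direction and call under all 12 other settings and without each array in turn, with ranges of 0.85 to 1.19, 1.30 to 1.97 and 0.75 to 0.92. Gimap4 and Gimap9 kept their direction, and Gimap4 lost its call under 2 of 12 settings. Without each array in turn 3 to 4 Gimap genes rose and 0 to 1 fell. The all-gene counts of 1902 higher and 1422 lower became 1131 and 829 without normalization, 2862 and 2205 with replicates 1 and 2 only (added after seeing the data), and 2672 lower with all probe sets separately, and ran from 1114 to 2193 and from 875 to 1713 without single arrays. The replicate block ended no Gimap call in this comparison.

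In the transfer comparison no Gimap gene passed except with replicates 1 and 2 only, where 1 was higher and 1 lower. The counts over all genes, 8 higher and 6 lower, were 95 and 124 with the replicate block, 263 and 242 with replicates 1 and 2 only, 5 higher with no filter, 4 higher with the median of probe sets, 22 higher with all 12 arrays in one fit, and ran from 1 to 16 and from 1 to 10 without single arrays. In the interaction 2 Gimap genes were higher and 0 lower, beside 592 and 407 of 12176 genes. The Gimap count higher was 1 without normalization, 1 with scaling to the trimmed mean and 1 without the trend. Over all genes 282, 536 and 546 were higher under these settings. With replicates 1 and 2 only the Gimap count was 4 (1 lower), where 2201 genes were higher and 1571 lower of 12147. Without single arrays it was 1 to 2, with 0 to 1 lower, where 310 to 889 genes were higher and 193 to 612 lower. The member that was lower was Gimap9 without BALB replicate 3, at -0.82 (limma adjusted p = 0.043).

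Values that changed sign belonged to genes that did not pass. They were Gimap6 in SKG without normalization (-0.03) and with the median of probe sets (-0.07), Gimap5 in SKG with replicates 1 and 2 only (0), Gimap1, Gimap3 and Gimap9 between transfers without normalization (0, -0.03 and -0.09), Gimap7 between transfers with the median of probe sets (-0.07), and in the interaction Gimap6 with that median (-0.05) and Gimap1 with replicates 1 and 2 only (-0.05). Without single arrays the sign also changed for Gimap5 in SKG (-0.19 to 0.18), for Gimap1 (-0.08 to 0.44), Gimap3 (-0.12 to 0.41), Gimap5 (-0.43 to 0.23), Gimap6 (-0.33 to 0.29), Gimap7 (-0.01 to 0.30) and Gimap9 (-0.06 to 0.11) between transfers, and for Gimap1 (-0.19 to 0.34), Gimap5 (-0.24 to 0.44) and Gimap6 (-0.21 to 0.43) in the interaction. The cause of these changes was not tested. Of 64 group levels under other settings 1 moved by more than its SD, Gimap6 in SKG without normalization (10.87).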
